A study of Mus musculus with 14 samples.

Results

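Genes of cellular senescence and the p53 response (9 of the 55291 gene symbols counted) were followed through peeled esophageal epithelium and stroma of young and aged mice. They were taken by symbol: Trp53, encoding p53; Mdm2, its E3 ubiquitin ligase; the p53 target genes Cdkn1a (p21) and Gdf15; the cyclin-dependent kinase inhibitors Cdkn1b (p27), Cdkn2a (p16Ink4a and p19Arf), Cdkn2b (p15Ink4b) and Cdkn2c (p18Ink4c); and Lmnb1 (lamin B1). The choice was made by gene name, with earlier results of these data known. Bulk RNA-Seq of poly(A)-selected RNA gave 14 libraries from 9 C57BL/6 mice with no labelled transgene, deletion or treatment. These were 5 aged and 4 young epithelial libraries and 3 aged and 2 young stromal libraries. Aged mice were at least 18 months old and young mice at most 4 months old, per the labels. O1, O2 and O3 (aged) and Y1 and Y3 (young) gave both layers, whereas OF5 and OM8 (aged) and YF5 and YM4 (young) gave epithelium only and carry codes of another form. Sex is labelled for 3 of the 9 mice. For its epithelium-enriched samples the paper took the muscle off the esophagus, which left the mucosal layer. Its methods do not describe how the stroma of these libraries was taken. Skeletal muscle markers were high in the stromal libraries, as given below.

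Senescence is a lasting exit from the cell cycle. DNA damage stabilizes p53, which transcribes Cdkn1a, and p21 then inhibits the cyclin-dependent kinases that inactivate the retinoblastoma protein. p53 also transcribes Mdm2, whose product marks p53 for degradation, so the pair forms a negative feedback loop. Separately, the INK4 proteins p16Ink4a and p15Ink4b bind CDK4 and CDK6 and keep the retinoblastoma protein active, while p19Arf, read from the same gene as p16Ink4a, restrains Mdm2. Cells in senescence are known for losing lamin B1 and for secreting cytokines, proteases and growth factors. In a stratified epithelium such as that of the esophagus, basal cells divide and p21 and p27 act as cells leave the cycle to differentiate. The protein and its activity were not measured here: p53 is regulated largely after translation, and Trp53 RNA is not a measure of it.

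Promoter sequences are shown for the genes on which the results turn, since p53 binds DNA at its target genes. Only the windows described here were searched, and sites elsewhere in a gene were not. RefSeq starts on GRCm38.p6 were found for 8 of the 9 genes, as 12 windows of 250 bases before and 50 bases after a start; for Lmnb1 none was used here. The motifs searched, on both strands, were the p53 half-site, the GC box (GGGCGG) and an E2F site (TTTCCCGC). Among all 32851 promoter windows of this length, 8.36% held a p53 half-site, 35.7% a GC box and 1.07% the E2F site. The motifs are shown in capitals, and only bases before the start are printed, 5′ to 3′ on the strand of the gene. A match is a match of letters and was not tested for binding.

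Cdkn1a is shown at both starts because only the first holds p53 half-sites, beginning 73 and 51 bases before it, and only the second holds GC boxes, 104 and 46 bases before it. Both windows end at the base before the start, at chr17:29090879-29090978 and chr17:29093659-29093768 on the plus strand.
Cdkn1a, first start: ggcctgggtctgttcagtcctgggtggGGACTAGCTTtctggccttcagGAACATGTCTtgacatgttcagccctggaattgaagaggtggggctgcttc
Cdkn1a, second start: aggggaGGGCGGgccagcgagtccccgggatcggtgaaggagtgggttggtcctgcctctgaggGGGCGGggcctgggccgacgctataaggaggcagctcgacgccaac

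Mdm2 (chr10:117710839-117710958, minus strand) and Trp53 (chr11:69580259-69580358, plus strand) are shown because each holds a single p53 half-site, 186 and 75 bases before the start. Mdm2 also has GC boxes 104 and 88 bases before its start.
Mdm2: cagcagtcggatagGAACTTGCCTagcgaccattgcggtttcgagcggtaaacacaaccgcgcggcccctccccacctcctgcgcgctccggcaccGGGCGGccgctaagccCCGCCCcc
Trp53: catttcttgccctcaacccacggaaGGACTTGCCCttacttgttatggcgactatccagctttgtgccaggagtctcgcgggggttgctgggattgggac

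Cdkn2a and its neighbour Cdkn2b lie on chromosome 4 on the minus strand and are shown because their mean RNA levels differed widely in epithelium. The first Cdkn2a start (chr4:89294654-89294729) is that of the p19Arf transcript and holds the E2F site, 99 bases before it, and GC boxes 48 and 14 bases before it, of which the latter lies outside the bases shown. The second start (chr4:89282193-89282302), that of p16Ink4a, and the Cdkn2b start (chr4:89311033-89311142) have no match in the bases shown.
Cdkn2a, first start: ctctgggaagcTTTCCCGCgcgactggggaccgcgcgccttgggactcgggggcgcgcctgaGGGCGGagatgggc
Cdkn2a, second start: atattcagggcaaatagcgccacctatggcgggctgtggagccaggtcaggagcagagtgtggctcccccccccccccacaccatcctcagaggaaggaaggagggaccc
Cdkn2b: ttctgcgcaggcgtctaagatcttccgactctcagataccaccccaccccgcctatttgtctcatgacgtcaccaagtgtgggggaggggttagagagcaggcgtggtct

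Values are normalized counts, that is CPM on the TMM-adjusted library size, unless a raw count is named. Total counts ran from 16477424 to 21867101 in epithelium where the mouse gave both layers (5 mice) and from 13257833 to 15644580 in stroma. They ran from 8217516 to 9399448 in the 4 mice with epithelium only, of which 1021586 to 1388574 were in protein-coding genes. In the mice with both layers, protein-coding counts ran from 7918744 to 10992868 in epithelium and from 5980721 to 7641887 in stroma. TMM factors ran from 0.256 to 0.506 in the mice with epithelium only and from 1.276 to 1.745 in the other libraries. A raw count of 3 was taken as the detection floor. It was worth 0.0872 to 0.124 normalized counts in epithelium of the mice with both layers and 0.115 to 0.175 in stroma. In the mice with epithelium only it was worth 0.707 to 1.25. All 8 epithelial markers were called higher in epithelium and all 6 skeletal muscle markers lower. The summed level of 4 markers of differentiated epithelium ran from 16558 to 52329 in epithelium and from 33.4 to 422 in stroma, and that of 6 skeletal muscle markers from 14.5 to 1238 in epithelium and from 31984 to 59865 in stroma. Summed adipocyte markers ran from 0 to 2.76 in epithelium and from 132 to 711 in stroma. Schwann cell markers ran from 0.471 to 7.64 and from 10.7 to 61.8, and endothelial markers from 17.7 to 30.9 and from 38.0 to 135. Fibroblast, smooth muscle and immune markers were not as well separated, and their sums overlapped. Fibroblast markers ran from 280.5 to 632 in epithelium and from 415 to 1031 in stroma. Smooth muscle markers ran from 333 to 835 and from 303 to 2051, and immune markers from 6.23 to 22.1 and from 5.78 to 72.5. In bulk tissue, fewer cells of a type and less RNA per cell cannot be told apart.

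**Figure D1:**
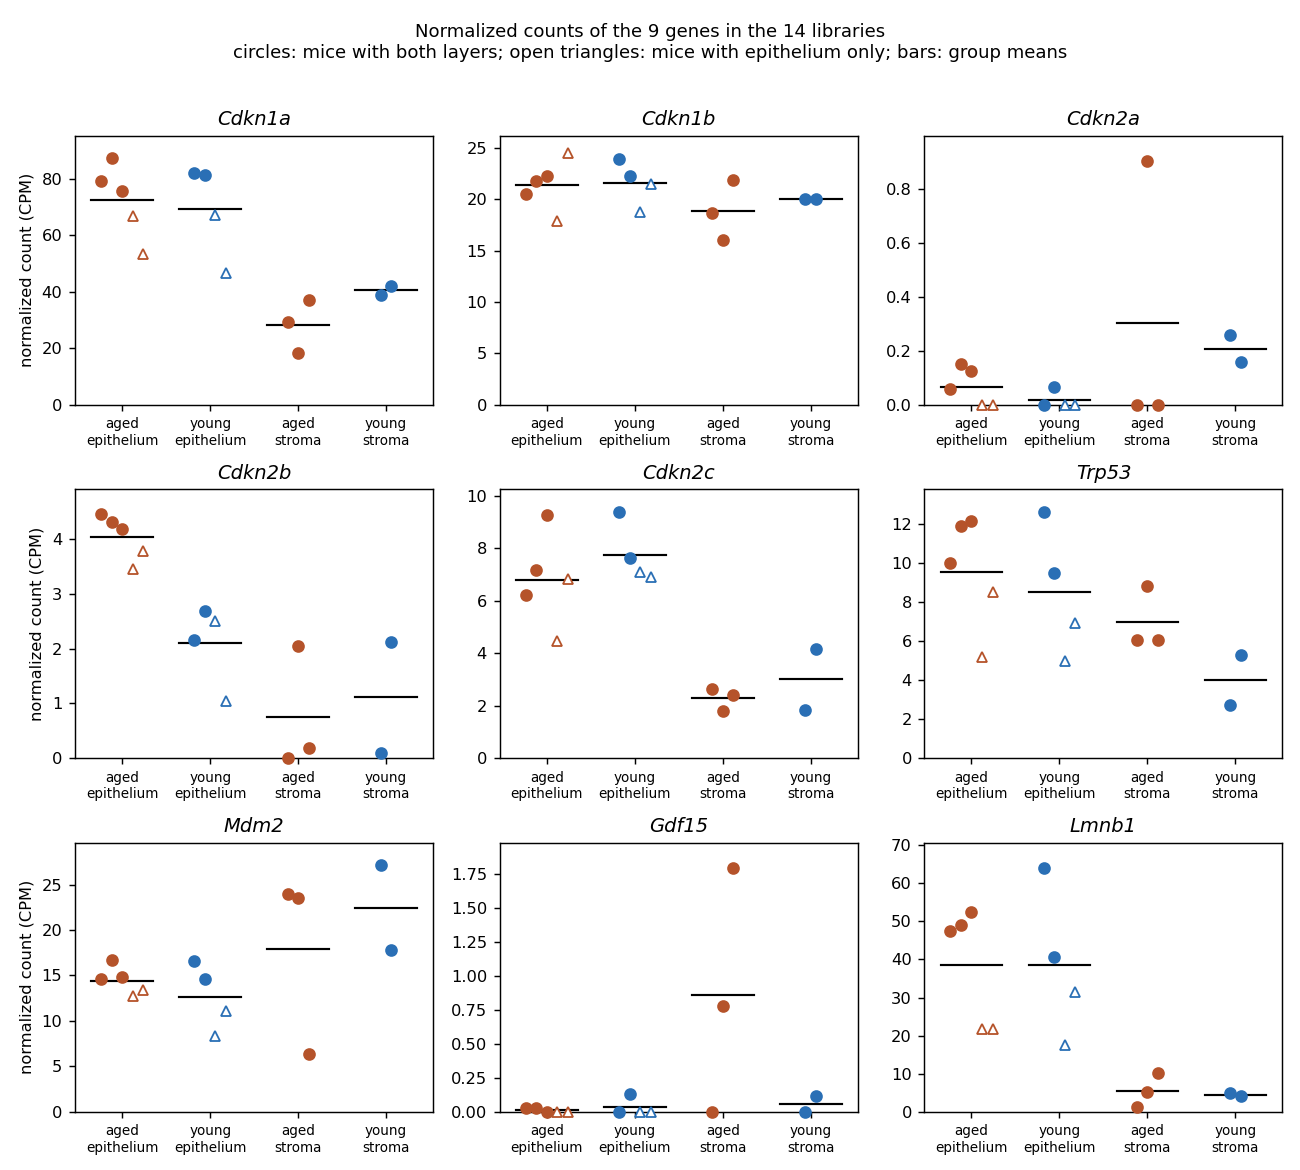
Normalized counts (CPM on the TMM-adjusted library size, linear axes from 0) of the 9 genes in each of the 14 libraries, with aged libraries in orange and young ones in blue; circles are mice with both layers, open triangles mice with epithelium only, and bars group means. Cdkn1a, Cdkn2c and Lmnb1 are higher in all 9 epithelial than in all 5 stromal libraries, and Cdkn2b is higher in all 5 aged than in all 4 young epithelial libraries.

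Epithelium was first compared with stroma, to ask which of the genes differ between the layers. Of the 9 genes, 7 passed the filter on low counts, and 5 of these were differentially expressed (DEGs, adjusted p under 0.05 in the quasi-likelihood test of edgeR, with p-values adjusted by Benjamini-Hochberg over all genes). All 5 were higher in epithelium: Cdkn1a, Cdkn2b, Cdkn2c, Trp53 and Lmnb1. The background is high, because 56.2% of the 16791 genes tested were DEGs, 26.1% higher and 30.1% lower in epithelium. For 3 of the 7 genes no epithelial library overlapped a stromal one, a pattern that 14.4% of all genes tested showed in this direction. Cdkn1b and Mdm2 did not pass the test.

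Lmnb1 (chromosome 18, 56707813 to 56753424 on the plus strand of GRCm38) showed the widest gap of the tested genes. Its product lines the inner face of the nuclear membrane. The epithelial libraries ran from 17.5 to 64.1 normalized counts with a median of 40.7, and the stromal libraries held 1.17 (O1), 5.18 (O2), 10.1 (O3), 4.90 (Y1) and 4.10 (Y3). The lowest epithelial library was above the highest stromal one. The fitted difference was 7.61-fold (log2 fold change 2.93 ± 0.43 SE, adjusted p = 2.23e-05 by edgeR). Among stromal libraries O3 was highest, and O3 stroma also had the highest summed level of basal epithelial markers (52.4, against 4.69 to 33.9 in the other 4) and of immune markers (72.5, against 5.78 to 26.0). Their part in the Lmnb1 value was not tested.

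Cdkn1a (chromosome 17, 29090976 to 29100727, plus strand) was the most abundant of the 9 genes in both layers. In epithelium it ran from 46.7 to 87.3 normalized counts with a median of 75.8, and in stroma it held 29.2 (O1), 18.3 (O2), 37.3 (O3), 39.0 (Y1) and 42.2 (Y3). The groups did not overlap, although YM4 epithelium at 46.7 came close to Y3 stroma at 42.2. The difference was 2.15-fold (log2 fold change 1.10 ± 0.20 SE, adjusted p = 0.000107 by edgeR). An antisense gene, AC167363.2, shares 273 exon bases with Cdkn1a, and whether strand was used in the counting is not stated, so reads from the 2 genes cannot be told apart there.

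Cdkn2c (chromosome 4, 109660876 to 109667189, minus strand), an inhibitor of CDK4 and CDK6, ran from 4.48 to 9.39 normalized counts in epithelium with a median of 7.08. Stromal libraries held 2.63 (O1), 1.81 (O2), 2.41 (O3), 1.86 (Y1) and 4.18 (Y3), all below the epithelial ones, with Y3 stroma nearest to the lowest epithelial library, OF5. The difference was 2.83-fold (log2 fold change 1.50 ± 0.27 SE, adjusted p = 7.07e-05 by edgeR).

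Cdkn2b (chromosome 4, 89306299 to 89311039, minus strand), the INK4 gene known as a target of TGF-beta signalling, ran from 1.04 to 4.45 normalized counts in epithelium with a median of 3.45. In stroma it was split: O2 and Y3 held 2.05 and 2.13, from raw counts of 50 and 54, while O1, O3 and Y1 held 0, 0.191 and 0.103, from raw counts of 0, 5 and 2. The 2 higher stromal libraries were thus 1 aged and 1 young, and they overlapped the epithelial range. In each of the 5 mice with both layers, epithelium was above stroma. The fitted log2 fold change was 1.82 ± 0.69 SE (adjusted p = 0.0309 by edgeR). It was 3.01 with mouse as a block (adjusted p = 0.0367), and the call was lost without O1, O3 or Y1 (adjusted p = 0.0629, 0.0813 and 0.0705) and in the same 5 mice without the block (0.0662).

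Trp53 (chromosome 11, 69580359 to 69591873, plus strand) ran from 5.0 to 12.6 normalized counts in epithelium with a median of 9.49, and held 6.07 (O1), 8.79 (O2), 6.04 (O3), 2.73 (Y1) and 5.28 (Y3) in stroma. The layers overlapped, but only through the mice with epithelium only: in the 5 mice with both layers epithelium ran from 9.49 to 12.6, above all their stroma. The log2 fold change was 0.69 ± 0.28 SE (adjusted p = 0.0384 by edgeR) and 1.04 with mouse as a block (adjusted p = 0.0143). The call was lost without O1, O3, Y1 or Y3 (adjusted p = 0.0731, 0.0785, 0.19 and 0.126), with upper quartile scaling (0.0517) and under the stricter filter that asks for 10 counts in all libraries (0.182). The processed pseudogene Trp53-ps shares runs of 50 identical bases with Trp53 transcripts and had raw counts of 0 to 59 per library, against 12 to 393 for Trp53, so a part of these reads could have been divided between the copies.

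Mdm2 (chromosome 10, 117688875 to 117710758, minus strand) went the other way in most mice without passing the test. Epithelial libraries ran from 8.33 to 16.7 normalized counts with a median of 14.6, and stromal libraries held 24.0 (O1), 23.5 (O2), 6.31 (O3), 27.1 (Y1) and 17.8 (Y3). O3 stroma was below every epithelial library, and the other 4 stromal libraries were above all of them. The log2 fold change was -0.50 (95% interval -1.02 to 0.01, adjusted p = 0.0899 by edgeR). It was called without O3 (-0.74, adjusted p = 0.00296), with upper quartile scaling (-0.62, adjusted p = 0.0365) and with at least 10 counts in every sample (-0.82, adjusted p = 0.00469), and under none of the other alternatives.

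Cdkn1b (chromosome 6, 134920401 to 134925513, plus strand) was the steadiest of the 9 genes. It held 21.5 ± 2.17 normalized counts (SD) over the 9 epithelial and 19.3 ± 2.15 over the 5 stromal libraries, and its range of 16.1 to 24.5 over all 14 libraries was the narrowest of the 9 in relative terms. The log2 fold change was 0.16 (95% interval -0.13 to 0.45, adjusted p = 0.337 by edgeR), an interval that leaves out a difference of 2-fold in either direction.

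Cdkn2a and Gdf15 had too few counts for the test. Cdkn2a (chromosome 4, 89274471 to 89294653, minus strand) summed to 12 raw counts over the 9 epithelial libraries and to 31 over the 5 stromal ones. In epithelium its raw counts were 2 (O1), 5 (O2), 3 (O3), 0 (Y1) and 2 (Y3), with 0 in all 4 mice with epithelium only, where the floor of 3 counts still allows up to 0.707 to 1.25 normalized counts. In stroma they were 0 (O1), 22 (O2), 0 (O3), 5 (Y1) and 4 (Y3). The gene-level count joins the p16Ink4a and p19Arf transcripts, which cannot be told apart here.

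Gdf15 (chromosome 8, 70629393 to 70632456, minus strand), a secreted stress-response cytokine of the TGF-beta superfamily, summed to 6 raw counts in epithelium and to 69 in stroma. Of the stromal counts, 47 were from O3 and 19 from O2, both aged, with 3 in Y3 and 0 in O1 and Y1. In epithelium, 4 of the 6 counts were from Y3 and no library other than Y3 had more than 1.

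**Figure D2:**
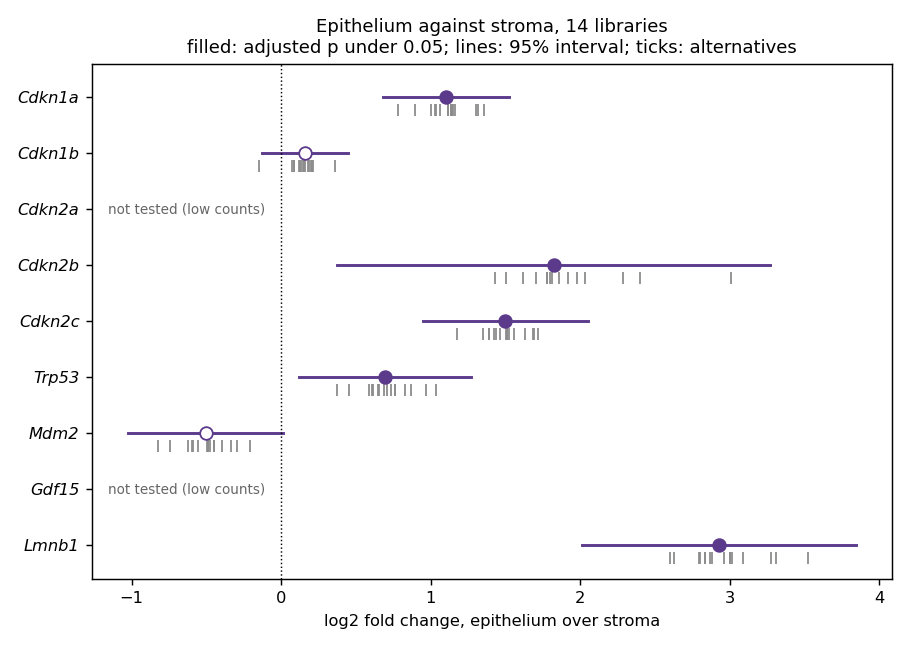
Log2 fold change of epithelium over stroma for each gene over the 14 libraries, with its 95% interval; filled points have an adjusted p under 0.05, and grey ticks give the value under each alternative. The intervals of Cdkn1a, Cdkn2b, Cdkn2c, Trp53 and Lmnb1 lie above 0, those of Cdkn1b and Mdm2 include 0, and that of Cdkn2b is the widest.

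To set the genes beside each other, levels were divided by the length of their merged exons. Per kilobase, epithelium ran from Cdkn1a (20.0 ± 3.87 normalized counts per kilobase, SD, n = 9) through Lmnb1 (13 ± 5.47) and Cdkn1b (4.72 ± 0.477) to a group of 4 genes between 2.24 and 2.69: Cdkn2c, Mdm2, Cdkn2b and Trp53. The first 3 steps held in all 9 libraries. Neighbours within the group of 4 did not keep their order, with Cdkn2c above Mdm2 in 4 of 9 libraries and Cdkn2b above Trp53 in 6 of 9. Cdkn2a (0.0379) and Gdf15 (0.0114) had the lowest means and were below the rest in every library. In the 4 mice with epithelium only, both had raw counts of 0, and the floor of 3 counts was worth 0.707 to 1.25 normalized counts. How far below the rest they lay in those libraries is thus not shown.

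Stroma had another order. Cdkn1a was again the highest (9.34 ± 2.71 normalized counts per kilobase, SD, n = 5), followed by Cdkn1b (4.25 ± 0.471) and Mdm2 (3.89 ± 1.62), which did not differ beyond their spread, since Cdkn1b was above Mdm2 in 2 of 5 libraries only. Lmnb1 dropped to the fourth place at 1.72 ± 1.09, close to Trp53 at 1.43 ± 0.535, and Cdkn2c and Cdkn2b followed at 0.959 and 0.644. Gdf15 and Cdkn2a held 0.291 and 0.225 and were each at 0 in 2 of 5 libraries.

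The second question was whether the genes differ with age in epithelium, over 5 aged and 4 young mice and with the code form of the mice in the model. None of the 7 genes tested was a DEG in edgeR, against a background of 2 DEGs among 15107 genes tested (0.0132%). At an unadjusted p under 0.05 there was 1 of the 7, Cdkn2b, against 3.36% of all genes. DESeq2 also called none of them, nor did a fit with the number in the mouse code as a block, which called 4 genes in all.

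Cdkn2b had the only difference whose interval left out 0. Aged epithelium held 4.45 (O1), 4.30 (O2), 4.18 (O3), 3.45 (OF5) and 3.77 (OM8) normalized counts, and young epithelium 2.16 (Y1), 2.68 (Y3), 2.50 (YF5) and 1.04 (YM4). All 5 aged libraries were above all 4 young ones, which 0.887% of the genes tested showed in this direction. The log2 fold change was 0.87 ± 0.26 SE, or 1.83-fold, with a 95% interval of 0.33 to 1.41. It failed the correction over all genes (adjusted p = 0.899 by edgeR).

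The depth behind the Cdkn2b values was uneven. Raw counts were 153, 142 and 101 in O1, O2 and O3 and 61 and 82 in Y1 and Y3, but 10, 16, 6 and 3 in OF5, OM8, YF5 and YM4. In the 5 mice with both layers alone, the log2 fold change was 0.82 (adjusted p = 0.712 by edgeR). Over the 16 alternatives in which it could be tested it ran from 0.78 to 1.02, with adjusted p between 0.0976 in DESeq2 and 1. No cell type marker was a DEG by age in epithelium, where only 2 of all genes tested were. At an unadjusted p under 0.05 by edgeR there were 3 of 6 fibroblast and 1 of 4 differentiated epithelial markers. No marker of the other types passed at that level, against 3.36% of all genes. All 6 skeletal muscle, 6 fibroblast and 4 differentiated epithelial markers lay below 0 (median log2 fold change -1.14, -0.33 and -0.27), as did 3 of 4 basal and 4 of 5 endothelial markers. All 3 immune markers tested (median 0.19) and the single Schwann cell and adipocyte markers tested lay above 0, and smooth muscle markers were split, with 3 above and 2 below. Summed levels in aged and young epithelium ran from 280.5 to 454 and from 416 to 632 for fibroblasts, and from 7.15 to 22.1 and from 6.23 to 9.29 for immune cells. Their part in the Cdkn2b difference was not tested.

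The p53 branch stayed close to 0. Cdkn1a held 79.2 (O1), 87.3 (O2), 75.8 (O3), 66.8 (OF5) and 53.5 (OM8) normalized counts in aged epithelium and 82.2 (Y1), 81.3 (Y3), 67.1 (YF5) and 46.7 (YM4) in young epithelium. The log2 fold change was 0.01 with a 95% interval of -0.26 to 0.29, so a change as large as 2-fold lies outside it. Trp53 had a log2 fold change of 0.07 (95% interval -0.31 to 0.46) and Mdm2 of 0.10 (-0.22 to 0.42). In both ages, the lowest 2 libraries for each of these 3 genes were the mice with epithelium only.

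Lmnb1, whose RNA is known to fall in senescent cells, held 47.4 (O1), 49.1 (O2), 52.5 (O3), 21.7 (OF5) and 21.7 (OM8) normalized counts in aged epithelium. Young epithelium held 64.1 (Y1), 40.7 (Y3), 17.5 (YF5) and 31.5 (YM4), so that the ages overlapped fully. Its log2 fold change was -0.13 (95% interval -0.47 to 0.21, adjusted p = 0.999 by edgeR). Cdkn2c and Cdkn1b had values of -0.21 (-0.63 to 0.20) and -0.05 (-0.33 to 0.23). Cdkn2a had at least 1 raw count in 3 of 5 aged and 1 of 4 young libraries, all from mice with both layers and none above 5, which is too few to compare.

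Age was then compared in stroma, over 3 aged and 2 young mice. None of the 8 genes tested was a DEG in edgeR, and none had an unadjusted p under 0.05. No gene at all was called among the 21323 tested (0%), of which 3.64% had an unadjusted p under 0.05, and DESeq2 called 2. With so few mice the intervals are wide, and groups that do not overlap are common: 6.57% of all genes tested were higher and 14% lower in every aged than in every young library.

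Cdkn1a was lower in all 3 aged stromal libraries (29.2, 18.3 and 37.3 normalized counts) than in the 2 young ones (39.0 and 42.2), with a log2 fold change of -0.53 (95% interval -1.23 to 0.17). Trp53 lay in the opposite direction, at 6.07, 8.79 and 6.04 in aged against 2.73 and 5.28 in young stroma (log2 fold change 0.79, 95% interval -0.44 to 2.02). Neither difference passed the test (adjusted p = 1 for both by edgeR).

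Gdf15 had the largest fitted value in stroma, on few counts. Its raw counts were 0, 19 and 47 in O1, O2 and O3 and 0 and 3 in Y1 and Y3, so 1 aged library was at 0 like 1 of the young ones. The log2 fold change of 3.71 had a 95% interval of -2.40 to 9.82 and depends on the prior count. Cdkn2b had an interval of -5.27 to 4.14, with each age holding 1 library near 2 normalized counts. Aged stroma also held more RNA of epithelial markers: all 4 basal markers were above 0 (median log2 fold change 2.48), and their summed level ran from 10.7 to 52.4 in aged and from 4.69 to 9.34 in young stroma, with none at 0 throughout. All 4 differentiated epithelial markers (2.46), all 5 smooth muscle markers (1.56) and 4 of 5 immune markers (0.85) were above 0 too. Summed smooth muscle markers ran from 816 to 2051 in aged and from 303 to 600 in young stroma. The other 2 sums overlapped between the ages. O1 held 35.9 for differentiated markers, within the young range of 33.4 to 64.3, and 5.78 for immune markers, below the young 15.5 and 23.7. All 4 Schwann cell and all 4 adipocyte markers were below 0 (medians -1.31 and -1.37), while skeletal muscle, fibroblast and endothelial markers lay on both sides. No cell type marker was a DEG. At an unadjusted p under 0.05 by edgeR there were 4 of 5 smooth muscle, 3 of 4 basal, 2 of 4 differentiated epithelial and 3 of 4 adipocyte markers. So did 1 of 6 fibroblast and 1 of 4 Schwann cell markers pass at that level, against 3.64% of all genes. The part of these cell types in the stromal values was not tested.

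**Figure D3:**
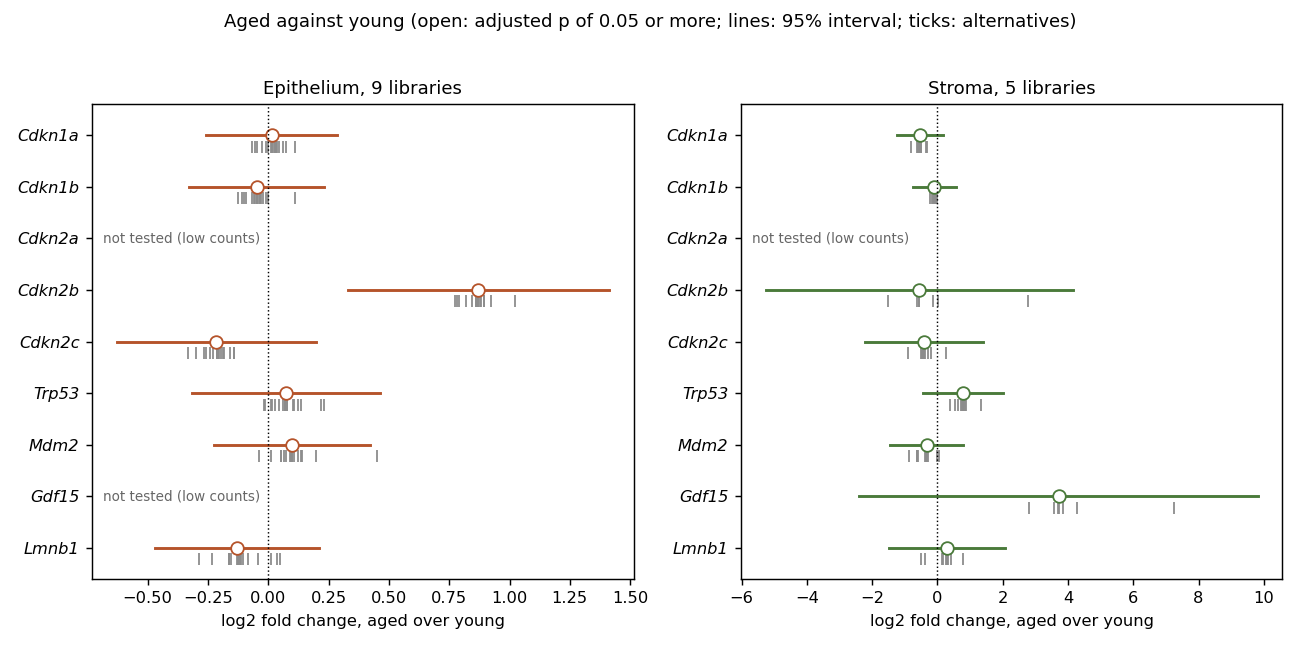
Log2 fold change of aged over young for each gene in epithelium (left, 9 libraries) and in stroma (right, 5 libraries, on a wider axis), with 95% intervals; open points have an adjusted p of 0.05 or more, and grey ticks give the value under each alternative. In epithelium the interval of Cdkn2b (0.33 to 1.41) is the only one that does not include 0, and in stroma all 8 include it.

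Whether the age difference itself differs between the layers was tested by an interaction term in the 10 libraries of the 5 mice with both layers. None of the 8 genes tested passed, and none had an unadjusted p under 0.05 (all genes: 0 of 22771 by edgeR, with 4.3% at an unadjusted p under 0.05; 62 by DESeq2). The term was 0.52 for Cdkn1a (95% interval -0.29 to 1.33), -0.75 for Trp53 (-1.82 to 0.33) and 1.39 for Cdkn2b (-2.56 to 5.35). The Cdkn2b difference in epithelium is therefore not shown to be particular to that layer.

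Lmnb1 differed between the mice of the 2 code forms. In the same epithelial fit, the 4 mice with epithelium only were compared with the other 5, a comparison added after the data were seen. Lmnb1 was a DEG and lower in the 4 mice (log2 fold change -0.93 ± 0.17 SE, adjusted p = 0.00195 by edgeR), at 17.5 to 31.5 normalized counts against 40.7 to 64.1. It was the 1 DEG of the 7 genes, a share near the background of 14.6% of all genes tested, 7.22% in this direction. Trp53, Mdm2 and Cdkn1a did not overlap between the 2 sets either (log2 fold changes -0.56, -0.21 and -0.27) but did not pass the test; 18% of all genes lay lower in this way. Basal epithelial markers were lower in these mice as well, with 3 of 4 called and a summed level of 771 to 1340 against 1599 to 2353, as were 2 of 4 differentiated markers and the total count of protein-coding genes, while 1 of 5 smooth muscle and 1 of 3 immune markers were higher. The meaning of the code is not given by the labels, and the parts of depth, of the cell types sampled and of the mice themselves cannot be told apart.

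Around the 9 genes, 9 lists with 107 genes of the p53, cell cycle and senescence pathways were examined. Between the layers, 93 were tested: 39 were higher in epithelium, 20 were lower and 34 were not DEGs. The background for each list is the 26.1% higher and 30.1% lower over all genes. By age, none of 88 was a DEG in epithelium, none of 98 in stroma and none of 103 in the interaction by edgeR. In epithelium 5 of the 88 had an unadjusted p under 0.05 (Ccng1, Plk2, Cdk6, Rnf2 and Plau, named after their values were seen), against 3.36% of all genes.

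The list of p53 control held 13 genes, namely regulators of p53 and its relatives Trp63 and Trp73. Of the 13, 5 were higher in epithelium and none lower (1 with DESeq2 or with upper quartile scaling), with 8 not called. The median log2 fold change was 0.29, against -0.05 over all genes tested. Trp63 and Trp73 were among the 5, so the share is not one of regulators alone. Trp63, the p53 relative that maintains basal cells of stratified epithelia, held 90.9 ± 28.8 normalized counts (SD) over the 9 epithelial and 8.08 ± 2.44 over the 5 stromal libraries (log2 fold change 3.50 ± 0.29 SE, adjusted p = 2.38e-09 by edgeR). Trp73, the third member of the family, had a log2 fold change of 1.96. Usp7, a deubiquitinase that acts on Mdm2 and p53, held 96.2 ± 8.60 against 30.5 ± 5.64 normalized counts (SD, n = 9 and n = 5) and had a log2 fold change of 1.66.

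Known p53 targets lay in both directions, with shares near the background. Of 15 tested targets for arrest and repair, 5 were higher in epithelium and 5 lower, with a median log2 fold change of 0.56. Plk2, Sesn2 and Zmat3 were the highest of these, at 2.02, 1.84 and 1.49; Sesn2 encodes a sestrin that restrains mTORC1 signalling. Ccng1 (cyclin G1) was lower in epithelium, at 17.5 ± 5.09 against 285 ± 75.2 normalized counts (SD, n = 9 and n = 5) and a log2 fold change of -4.02, followed by Tigar at -1.98 and Rrm2b, a ribonucleotide reductase subunit, at -1.51. Cdkn1a and Ccng1, both targets of p53, thus lay in opposite directions between the layers.

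The cell death targets were split as well, again near the background, with 2 of 9 tested higher (1 with upper quartile scaling), 2 lower and a median of 0.02. Perp, which is a p53 target and a desmosome protein of stratified epithelia, held 624 ± 123 normalized counts (SD) over the 9 epithelial and 7.20 ± 7.25 over the 5 stromal libraries, 6.43 apart on the log2 scale, and Ei24 had a log2 fold change of 0.51. The death receptor genes Eda2r and Fas were lower in epithelium at -2.88 and -2.15.

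Genes downstream of the kinase inhibitors were mostly higher in epithelium. All 10 proliferation markers were DEGs in that direction, with a median log2 fold change of 3.26, led by Ccna2 (4.18), Plk1 (4.17) and Mki67 (4.02). Of the 14 G1 kinases, cyclins and members of the RB family, 7 were higher and 3 lower (median 0.84). Ccne1 (3.04), Cdk2 (1.67) and Rbl1 (1.63), which encode cyclin E1, its kinase and p107, led those that were higher, and Rbl2 (-0.92), E2f3 (-0.89) and Ccnd3 (-0.88) were lower. The higher levels of Cdkn1a, Cdkn2b and Cdkn2c in epithelium were thus found in the layer that also had more RNA of cell cycle genes.

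Of the nuclear lamina and HMGB genes, 6 of 8 were higher in epithelium and none lower (median 0.96). Hmgb2, a chromatin protein of dividing cells, had the largest difference at 3.90, followed by Lmna at 1.67 and Tmpo at 1.41, whereas Lmnb1 was at 2.93. Among the inhibitors of the same families outside the 9 genes, Cdkn1c (p57) was lower in epithelium at -2.73 (adjusted p = 0.000613 by edgeR), and Cdkn2d (p19Ink4d) did not pass the test at -0.84 (adjusted p = 0.0739). Both had their values from low levels, with Cdkn1c at 0.351 ± 0.348 normalized counts in epithelium (SD, n = 9).

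Polycomb repressors, which silence the Cdkn2a locus in many cells, were divided, also near the background, with 3 of 12 higher, 4 lower and a median of -0.05. Cbx2 (2.60) and Suz12 (0.68) were among those higher in epithelium and Bmi1 (-1.76), Cbx7 (-1.35) and Rnf2 (-0.76) lower. Of 22 secretory genes associated with senescence only 10 had enough counts between the layers, with 1 higher and 5 lower (median -1.08). Il1a was the one higher in epithelium (3.27), and Igfbp5 (-4.13) and Mmp3 (-3.66) were the lowest, Igfbp5 with 62.5 ± 22.1 against 1095 ± 120 normalized counts (SD, n = 9 and n = 5). Markers of endothelial cells (5 of 5), Schwann cells (4 of 4) and adipocytes (4 of 4) were lower in epithelium too, as were fewer of those of fibroblasts (3 of 6), smooth muscle (2 of 5) and immune cells (2 of 3 tested). Their part in these differences was not tested.

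**Figure D4:**
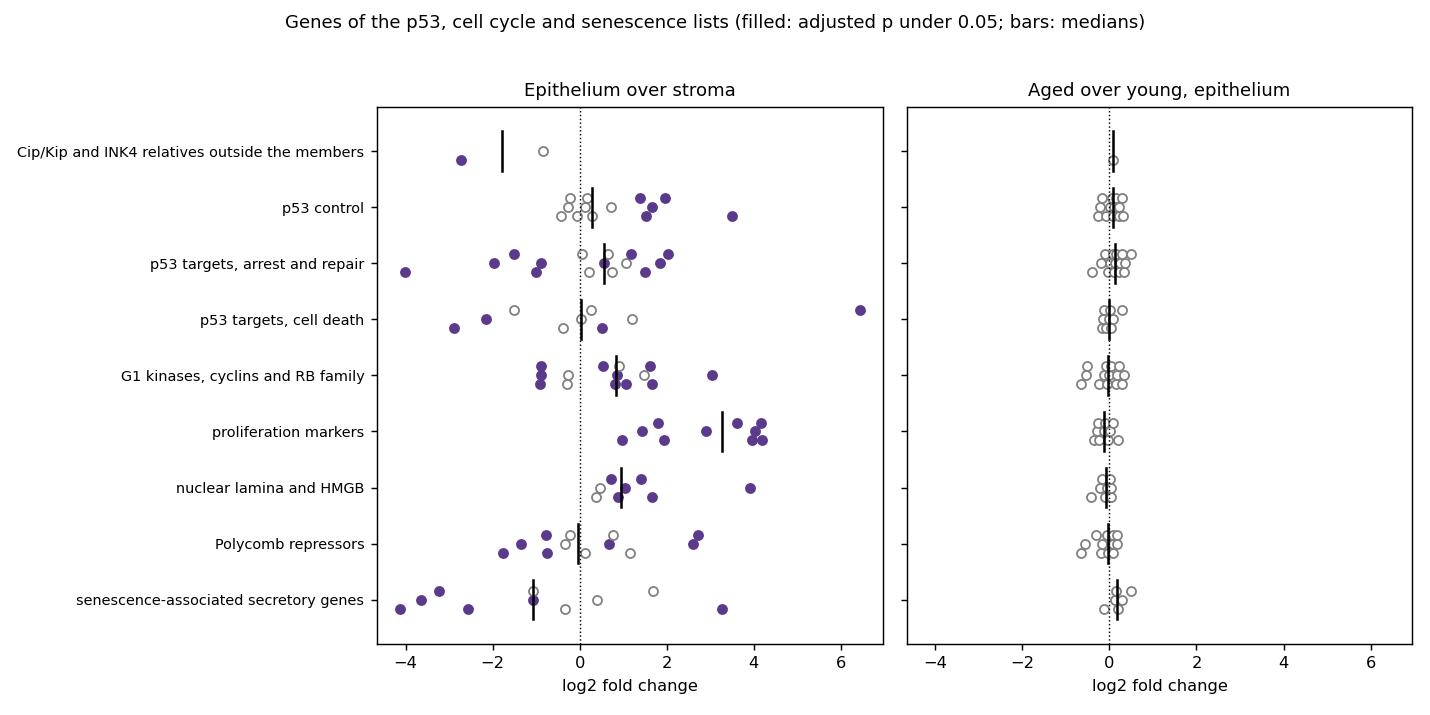
Log2 fold changes of the genes in the 9 pathway lists, epithelium over stroma (left) and aged over young epithelium (right) on the same axis; filled points have an adjusted p under 0.05 and bars are list medians. The points spread from -4.13 to 6.43 between the layers, with proliferation markers entirely above 0, whereas with age they stay within -0.65 to 0.50 and none is filled.

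The genes whose pattern over the 14 libraries was most like that of each member were ranked by Pearson's r on log2 normalized counts, among 6847 well expressed genes. The closest were Smarcd2 (r = 0.99) and Erp44 (0.98) for Lmnb1, Slc6a2 and Pank3 (both 0.96) for Cdkn2c and Atmin and Terf2 (both 0.96) for Cdkn1a. Trp53 was closest to Prep and Hp1bp3 (both 0.95), Mdm2 to Glrx5 (0.95) and Gstm5 (0.91), Cdkn1b to Zfp217 (0.93) and Arid2 (0.85), and Cdkn2b to Mob4 and Pi4kb (both 0.90). All points share the difference between the layers and the depth of the libraries, so the values are given as a description.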

How the data were processed

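Samples were grouped by the layer, age and mouse code in their labels. With Rsubread, the authors aligned reads to GRCm38.p6 and deposited whole-number counts per gene from featureCounts, not normalized. Strand and reads that match several genes are not given in the sources used here. Gene positions were taken from GENCODE M21, which holds 53292 of the 55291 symbols.

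The counts went into edgeR 4.0.16 (R 4.3.3; TMM, filterByExpr with a minimum count of 10, glmQLFit with robust estimation), with Benjamini-Hochberg adjustment over all genes tested and a threshold of 0.05. Layers were compared over all 14 libraries without a covariate, age within each layer (in epithelium with code form in the model), and the interaction in the 5 mice with both layers. The standard error is the log2 fold change divided by the square root of F. Normalized counts are those of the fit of the layers, and 0.5 was added before log2. Intervals and p-values cover the spread between these libraries, and floors counting error only.

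The 9 genes and the lists were chosen with earlier results of these data known. Named genes are the 9 genes, listed genes called by age (there were none), up to 3 called genes per list and direction between the layers, and the 2 most alike genes per member, by Pearson's r among genes whose average log2 CPM is 3 or more.

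Both layers of a mouse share an animal, which pairs them; their deviations from the group means correlated at 0.01 to 0.10 over the 5 mice. All 20 pairs of libraries within a group differed beyond counting noise (chi-square per degree of freedom of 9.94 or more). The alternatives were DESeq2 1.42.0, upper quartile scaling, other filters, protein-coding genes alone, other sample sets, blocks, and each mouse left out. The procedure was also run on simulated counts with known changes. The outcome is not given here, so that run is no support for the results above.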

Additional observations from a re-analysis of the deposited data

Results flagged for a closer look

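Gdf15 in the epithelium of Y3 stood apart from the other libraries. Its value of 0.131 normalized counts, from 4 raw counts, was above the 0 of the other 3 young epithelial libraries and the 0 to 0.0303 of the other 8 epithelial libraries. Cdkn2a in the same library was at 0.0654 normalized counts, from 2 raw counts, against 0 in the other 3 young libraries. The gap to the nearest library passed Dixon's limit in these 3 of 36 sets examined. Where the other 3 young libraries tie at 0, any count above 0 passes. The usual chance rate of about 1 set in 20 does not hold for such ties, and no conclusion is drawn. In YF5 and YM4 a raw count of 3 was worth 1.25 and 1.04 normalized counts, so their 0 cannot be set against the values of Y3. The Cdkn2a value is below the floor of 3 counts.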

How the results depend on the processing

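Between the layers, 97 of 111 values of the 7 genes under the alternatives kept their direction and their side of the threshold, among them all those of Cdkn1a, Cdkn2c and Lmnb1. The number of these genes called higher in epithelium was 5, and 3 with at least 10 counts in every sample, where 4316 of all genes were called; it ran from 3 to 5 when a mouse was left out. The number called lower was 0, and 1 with upper quartile scaling or at least 10 counts in every sample (Mdm2) and without a filter (Gdf15); it ran from 0 to 1 when a mouse was left out. With that stricter filter Cdkn1b had a log2 fold change of -0.15. Upper quartile scaling moved the median log2 fold change of all genes from -0.05 to -0.15, and mouse as a block moved it to 0.14; Trp53, lost with upper quartile scaling, and Mdm2, called with it, lay near the threshold. With mouse as a replicate block, Cdkn1a, Cdkn2b, Cdkn2c, Trp53 and Lmnb1 were again called, and 4 of them in the same 10 libraries without the block, where Cdkn2b was lost (adjusted p = 0.0662 by edgeR).

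By age in epithelium the count of all genes called was 2, against 28 with DESeq2, 36 without a filter, 0 without the covariate, 4 with the code number as a block or in the 5 mice with both layers, and 1 in the 4 mice with epithelium alone; leaving out a mouse gave 0 to 3. None of the 7 genes was called under any of these. In stroma the count of 0 became 2 with DESeq2, 26 without a filter and 6 with the code number as a block, and 0 to 13 without a mouse; in the interaction it became 62 with DESeq2 and 98 without a filter. Same-numbered mice are different animals that share a code form: their epithelial deviations correlated at 0.21 to 0.26 before the code form was taken out and at -0.43 to -0.20 after it.

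Signs turned for genes near 0. In epithelium, Cdkn1a was at -0.0089 without a filter, -0.047 with the code number as a block and -0.026 in the 5 mice with both layers, where Mdm2 was at -0.037; Lmnb1 was at 0.049 with that block, and Cdkn1b at 0.11 in the 4 mice with epithelium alone. In stroma, Lmnb1 was at -0.37 with the block. In the interaction, Cdkn1b was at 0.056 with upper quartile scaling, 0.015 with protein-coding genes only and 0.0076 with mouse as a block, and Lmnb1 at 0.024 with mouse as a block. Leaving out a mouse turned the sign of Cdkn1a (-0.068 to 0.073), Trp53 (-0.017 to 0.22) and Lmnb1 (-0.29 to 0.037) in epithelium. In stroma it did so for Cdkn2b (-1.50 to 2.79), Cdkn2c (-0.90 to 0.26), Mdm2 (-0.63 to 0.047) and Lmnb1 (-0.52 to 0.77), and in the interaction for Cdkn1b (-0.20 to 0.12), Cdkn2b (-1.91 to 4.07), Cdkn2c (-0.67 to 0.89), Mdm2 (-0.047 to 0.49) and Lmnb1 (-0.93 to 0.37). The causes were not tested. Depth limits the 4 mice with epithelium only most, where Cdkn2b rests on 3 to 16 counts.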
